A study of Mus musculus with 19 samples.

Results

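The chromatin of cells differentiating towards astrocytes was compared after 24 h with and without tumor necrosis factor (TNF), over every peak of an ATAC-seq table. The comparison was set by the sample titles alone and used 6 of the 19 libraries of the study, 3 from cells kept for 24 h with TNF at 50 ng/ml and 3 from cells kept for 24 h without it. Of 90154 peaks in the table, 88919 held enough reads to be tested. All cells came from wild-type C57BL/6J mouse embryos at embryonic day 14 and started as neural stem cells of the ventricular zone, prepared from single brains and grown as neurospheres (NSPs) with EGF at 20 ng/ml. Both groups were then plated in medium with 10% FBS, which drives the cells towards astrocytes, and 50000 cells entered each reaction. The labels call the differentiating cells astrocytes, so the model is a culture of embryonic progenitors that had differentiated for a day, and not an astrocyte of the adult brain. Further groups served as context: undifferentiated NSPs (3 libraries), cells kept for 72 h (3 untreated and 3 treated) and cells differentiated for 1 week (4). Their libraries also entered the fit and its estimate of spread.

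TNF is a secreted signalling protein of the immune system. On binding its receptor TNFR1 it assembles a complex of adaptors and ubiquitin ligases (TRADD, TRAF2, RIPK1 and the cIAPs) that activates the IKK kinases. IKK marks IκBα for destruction and so frees NF-κB dimers to enter the nucleus, where they bind DNA and switch on chemokine, adhesion and survival genes, among them the inhibitors that end the signal. A parallel branch through MAP kinases activates AP-1, the dimers of FOS and JUN proteins. Astrocytes exposed to such cytokines become reactive. ATAC-seq reads open chromatin with a transposase that inserts adapters where DNA is not packed in nucleosomes, so regulatory elements stand out as peaks of reads.

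The 3 untreated libraries held 11758938 to 15083087 reads in peaks and the 3 TNF libraries 15764739 to 18780028, so every TNF library was deeper than every untreated one (two-sided exact permutation p = 0.1, the smallest that 3 against 3 allows). Values below are normalised reads per peak (500 bp for 89898 of them), in the order of replicates 1, 2 and 3, and fold changes are differences of log2(value + 1) with their standard error (SE). Spearman correlations between replicates across peaks were 0.940 to 0.949 without TNF and 0.956 to 0.963 with it. Which brain or culture each library came from is not given in the sources used here, so the p-values measure the spread between these libraries, which may be technical. In such bulk samples, more cells with an open site and a more open site in each cell cannot be told apart. Of 26 astrocyte genes, 22 had a gene-end peak, including Gfap with a mean of 489 without TNF, Sox9 with 596 and Mlc1 with 1262. Of 17 neural progenitor genes, 16 did, including Sox2 with 984 and Olig2 with 665. Of 12 microglia and macrophage genes, 4 did, among them P2ry12 and Tmem119, while Aif1, Cx3cr1, Csf1r, Itgam and Ptprc had none. Of all 20998 promoters of protein-coding genes, 12612 had a tested peak at the start.

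With TNF, 6274 peaks were called higher (7.06% of those tested) and 3136 lower (3.53%), where a call is an adjusted p under 0.05 in a limma fit. The higher peaks moved further. Their median log2 fold change was 1.04 (quartiles 0.76 and 1.36), with 3320 at 2-fold or more, 367 at 4-fold or more and 40 at 8-fold or more. The median of the lower peaks was -0.79 (quartiles -1.02 and -0.61), with 842 at 2-fold or more and 11 at 4-fold or more. Across all peaks tested the median was -0.03. All 3 TNF libraries lay above all 3 untreated ones at 6163 of the higher peaks, against 15.2% of all peaks tested, and below them at 3070 of the lower peaks, against 14.4% of all peaks tested. The number of calls depended on single libraries. Without TNF replicate 3 the count of higher peaks was 3860. The count of lower peaks was 1525 without untreated replicate 1, 1864 without untreated replicate 2, 1962 without TNF replicate 1, 2026 without TNF replicate 2 and 1652 without TNF replicate 3. With a library left out, 69.2 to 74.7% of calls were higher, against 66.7% with all libraries. Other fits had more lower calls and a smaller excess of higher ones. Lower peaks numbered 5750 with the 6 libraries at 24 h alone (59.6% of calls higher), 5378 without the NSP libraries (60.9%) and 4914 with the 6 libraries thinned to equal depth (62.6%).

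A first set of sequences shows the DNA at 5 gene starts whose peak rose with TNF and whose promoter carries a κB match, that is GGG, 3 bases of any kind and TTCC on either strand. They were all the starts with a match among the risen starts examined for this set, from genes of the lists described below. Most of the starts examined, such as those of C3, Lcn2, Ifit1 and Junb, held no match. Some called starts, such as that of Map3k8, were not examined for this set. The 5 genes act at different steps of the response. Nfkbia encodes IκBα and Tnip1 the A20-binding inhibitor ABIN-1, both brakes on NF-κB. Tlr2 encodes a receptor for bacterial lipoproteins, Cxcl10 a chemokine that attracts T cells, and Steap4 a metalloreductase of the reactive astrocyte list. Each run is a stretch of the 250 bases before the start on the strand of the gene, from RefSeq GRCm38.p6, with the match in capitals.
Nfkbia (chr12:55492648-55492767, minus strand): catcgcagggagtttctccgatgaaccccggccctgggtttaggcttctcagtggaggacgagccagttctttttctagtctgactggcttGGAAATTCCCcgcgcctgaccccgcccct
Tnip1 (chr11:54962941-54963060, minus strand): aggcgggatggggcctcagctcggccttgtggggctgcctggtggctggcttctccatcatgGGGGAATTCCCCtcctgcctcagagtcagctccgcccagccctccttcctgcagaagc
Tlr2 (chr3:83841717-83841836, minus strand): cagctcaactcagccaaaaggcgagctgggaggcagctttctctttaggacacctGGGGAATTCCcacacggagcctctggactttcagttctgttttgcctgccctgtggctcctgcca
Cxcl10 (chr5:92348957-92349076, minus strand): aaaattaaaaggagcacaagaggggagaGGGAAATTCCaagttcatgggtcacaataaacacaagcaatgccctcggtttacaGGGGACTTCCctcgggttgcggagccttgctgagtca
Steap4 (chr5:7960222-7960341, plus strand): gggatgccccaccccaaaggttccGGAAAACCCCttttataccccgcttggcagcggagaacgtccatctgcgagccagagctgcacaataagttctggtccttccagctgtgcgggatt
The match lay 29 to 20 bases before the start in Nfkbia, 173 to 164 in Tlr2 and 226 to 217 in Steap4. Tnip1 held 2 overlapping matches, at 58 to 49 and 56 to 47 bases before the start. Cxcl10 held 2 separate ones, at 159 to 150 and 104 to 95. A match describes letters only, and binding was not measured.

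At the Nfkbia start (chr12:55492227-55492727) the untreated libraries read 679.7, 745 and 599.8 and the TNF libraries 868, 959.9 and 1037. This peak was already open before treatment, with no overlap between the groups, and rose by 0.50 ± 0.11 on the log2 scale (adjusted p = 0.0019). The Tnip1 start (chr11:54962726-54963226) read 10.2, 10.3 and 23.4 without TNF and 65.4, 59.3 and 75.8 with it. It was nearly closed in untreated cells and rose by 2.21 ± 0.43 (adjusted p = 8.4e-04). At the Cxcl10 start (chr5:92348735-92349235) the values were 35.3, 39.8 and 39.4 without TNF and 171, 109.9 and 141 with it. The lowest TNF library stood well above the highest untreated one, a log2 fold change of 1.83 ± 0.22 (adjusted p = 1.5e-06). The Tlr2 start (chr3:83841288-83841788) went from 153, 103 and 129 to 271, 253 and 350.0, and the Steap4 start (chr5:7960014-7960514) from 26.2, 25.1 and 25.9 to 86.7, 72.2 and 75.8. Neither pair of groups overlapped, with log2 fold changes of 1.18 ± 0.21 for Tlr2 (adjusted p = 2.7e-04) and 1.56 ± 0.29 for Steap4 (adjusted p = 4.7e-04).

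**Figure D1:**
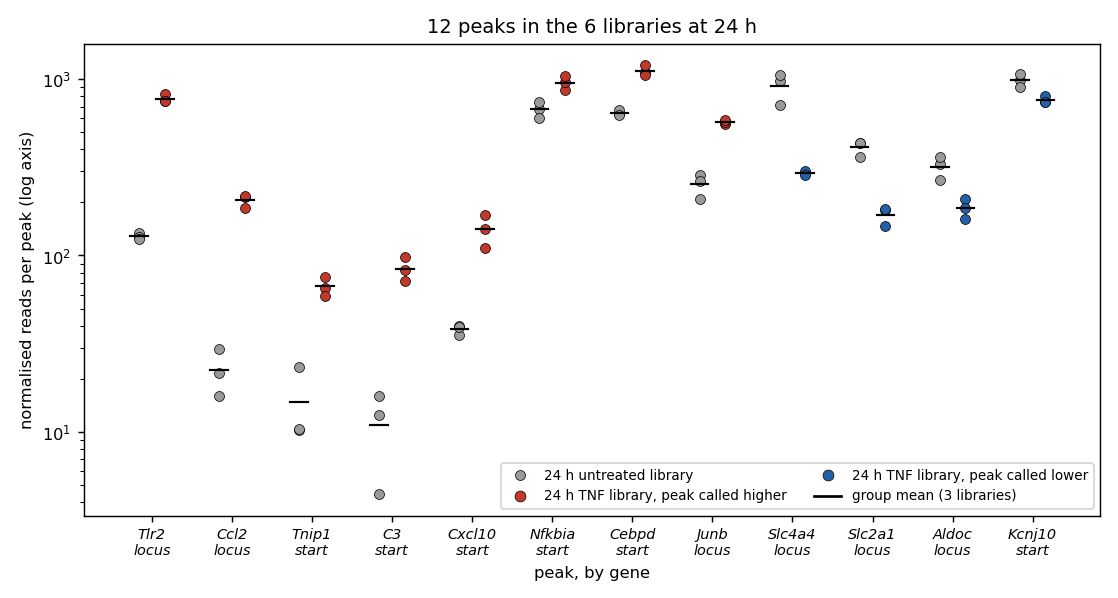
Normalised reads per peak (log axis) for 12 peaks in the 6 libraries at 24 h. Grey points are untreated libraries, red and blue points are TNF libraries at peaks called higher and lower, and bars are means of 3 libraries. The groups do not overlap at any of the 12 peaks, and the untreated values of Ccl2, Tnip1 and C3 are at most 29.5.

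Most called peaks lay away from gene starts. A peak counts as a gene-end peak if its centre is within 1 kb of the known start of a protein-coding gene, or of either gene end where the start is not known. Of 13522 gene-end peaks, 218 rose (1.61%) and 80 fell (0.592%). The count of 218 was 141 without untreated replicate 1 and 123 without TNF replicate 3. The count of 80 was 40 without untreated replicate 1, 43 without untreated replicate 2, 47 without TNF replicate 1, 49 without TNF replicate 2 and 40 without TNF replicate 3. Gene-end peaks made up 15.2% of the peaks tested but 3.47% of the peaks called higher and 2.55% of those called lower. The median distance to a gene end was 32.8 kb for higher peaks and 43.2 kb for lower ones, against 26.0 kb for all peaks. From 1 to 5 kb out, 7.46% of peaks were called higher and 3.22% lower. The share called higher reached 8.71% at 20 to 50 kb and was 6.36% beyond 500 kb, whereas the share called lower rose with each step of distance to 5.00% beyond 500 kb. Inside genes but away from their ends lay 3166 of the higher and 1583 of the lower peaks.

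Shares were also read among peaks of like level. Gene-end peaks were stronger, with a median untreated value of 348 against 73.6 elsewhere. When all peaks were split into 10 equal groups by their mean value at 24 h, the share of other peaks called higher went from 2.88% in group 1, the lowest, to 13.6% in group 9 and 8.19% in group 10. Among gene-end peaks it was 4.32% at most, in group 2, and 0.568% in group 10. The share called lower elsewhere went from 1.49% in group 1 to 9.14% in group 9 and 8.27% in group 10, and at gene ends it was 1.41% at most. Where gene-end peaks were called, the change was smaller, with a median log2 fold change of 0.79 for higher and -0.69 for lower peaks. Called peaks also had neighbours called in the same direction. Within 20 kb of a peak called higher, another peak called higher was found in 25.0% of cases, against 15.3% around peaks not called and 10.97% around peaks called lower. A peak called lower was found within 20 kb of 14.4% of peaks called lower, 7.87% of peaks not called and 5.61% of peaks called higher. These shares are descriptions, since neighbouring peaks share their DNA and libraries.

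**Figure D2:**
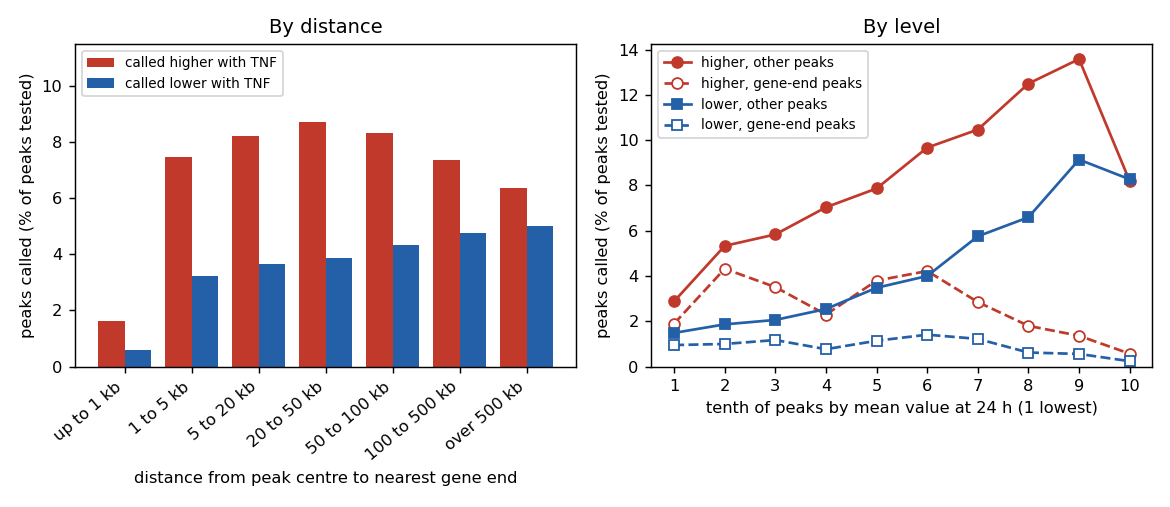
Share of tested peaks called higher (red) or lower (blue) with TNF at 24 h, by distance from the peak centre to the nearest gene end (left, bars) and by 10 equal groups of the mean value at 24 h (right, lines, gene-end and other peaks apart). Within 1 kb of a gene end 1.61% were called higher against 7.46% at 1 to 5 kb, and in level group 9 13.6% of other peaks were called higher.

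The 10 higher peaks with the smallest p-values were taken from calls without overlap between the groups, at most 1 per gene. Their separation was thus set by the selection. All lay more than 1 kb from a gene end, near or within genes of varied function. The smallest p of all belonged to a peak 21.2 kb from Tlr2 (chr3:83862823-83863323), which read 134, 127 and 124.4 without TNF and 822, 748 and 751 with it (log2 fold change 2.58 ± 0.14, adjusted p = 1.1e-12). Another lay within Sgce, which encodes epsilon-sarcoglycan (chr6:4708923-4709423), and read 167, 152 and 137 in untreated and 983, 1032 and 1025 in TNF libraries. The lowest TNF library was above the highest untreated one many times over, a log2 change of 2.73 ± 0.19 (adjusted p = 1.2e-10). In H6pd, an enzyme that makes NADPH in the endoplasmic reticulum, a peak at chr4:149979692-149980192 went from 195, 229 and 227 to 698, 665 and 683. Its replicates were tight in both groups and the log2 fold change was 1.65 ± 0.12 (adjusted p = 3.0e-10). Near Csmd1 (chr8:17587284-17587784, 52.1 kb from the gene) the values were 243, 305 and 298 without and 952, 1115 and 1058 with TNF. The log2 fold change was 1.89 ± 0.14 (adjusted p = 3.0e-10). In Rhbdf2, the gene of iRhom2, which helps the protease ADAM17 to shed TNF and its receptors from the cell surface, a peak at chr11:116621105-116621605 read 403, 509 and 427 and then 1369.8, 1369 and 1202. It was already strong and gained 1.56 ± 0.11 on the log2 scale (adjusted p = 3.1e-10). The peak 2.5 kb from Plekhf1 (chr7:38230246-38230746) started low, at 31.9, 16.2 and 35.7, and read 218, 254 and 311 with TNF. This was the largest change of the 10 peaks with the smallest p-values, 3.24 ± 0.23 on the log2 scale (adjusted p = 3.1e-10). Near Tmc1 and within Rad51b, the peaks at chr19:21106134-21106634 and chr12:79600249-79600749 changed by 1.83 ± 0.13 and 2.97 ± 0.19, and the remaining members of this set lay near Adamts20 (3.16 ± 0.20) and within Smad3 (described with TGF-β genes below).

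Among the peaks that fell, the 10 with the smallest p-values, chosen by the same rule, lost less. The most marked was within Gabbr2, a subunit of the GABA-B receptor (chr4:46710033-46710533), with 199, 224.2 and 156 in untreated and 54.8, 61.4 and 28.0 in TNF libraries. The highest TNF library lay well under the lowest untreated one, and the log2 fold change was -2.04 ± 0.27 (adjusted p = 5.1e-06). Within Sdk2, a cell adhesion molecule of synapses, a peak at chr11:113806208-113806708 went from 475, 441 and 296 to 128, 99.1 and 113. Untreated replicate 3 was lower than the others but still above all TNF libraries (-1.80 ± 0.21, adjusted p = 8.3e-07). Near B3gnt2 (chr11:22698474-22698974, 136.0 kb from the gene) a strong site read 1115, 1031 and 1217 without TNF and 498, 546 and 489 with it. Its loss was -1.13 ± 0.14 on the log2 scale (adjusted p = 1.6e-06). The others lay in or near Capn13 (-1.73), Galnt10 (-1.02), Insc (-1.32), Mtch2 (-1.86), Hs1bp3 (-1.22), Zfp957 (-1.65) and Slc2a1, which is described with glucose genes below. All 20 of these peaks kept their calls under each of the alternative settings tried, the fits without single libraries included.

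To describe genes, a peak was assigned to a gene when its centre lay inside it, or when the gene was the nearest protein-coding one and at most 100 kb away. Such locus peaks numbered 78916 for all genes, of which 5542 were called higher (7.02%) and 2636 lower (3.34%). Assignment by distance does not show that a peak acts on that gene. The gene lists used below were chosen with earlier results of these data known, so their counts are not independent evidence. Of 16575 genes with a locus peak, 3633 had at least 1 called higher, 2024 at least 1 called lower and 785 both. At least 4 higher peaks were found at 185 genes. The largest number was at Arhgap26, a GTPase-activating protein, with 12 of 64 locus peaks. Irf2bp2, a corepressor of IRF2, had 9 of 22, and Shroom3, Rad51b and Nckap5 had 9 each of 39, 46 and 47. Spidr had 7 of 10 and Nfkbia 7 of 12, the highest shares among the 10 genes with the most higher peaks. Sik1, a salt-inducible kinase, had 7 of 17, Col18a1, the collagen that yields endostatin, 7 of 16, and Nmnat2, an NAD synthase of neurons, 7 of 19. Of these genes Arhgap26 also had 2 lower peaks and Rad51b and Nckap5 had 1 each. Farp1 (7 of 27), Sdk2 (7 of 33), Csmd1 (7 of 41), Notch1 (6 of 23) and Auts2 (6 of 54) had the most peaks called lower, beside 1, 2, 3, 1 and 3 called higher.

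**Figure D3:**
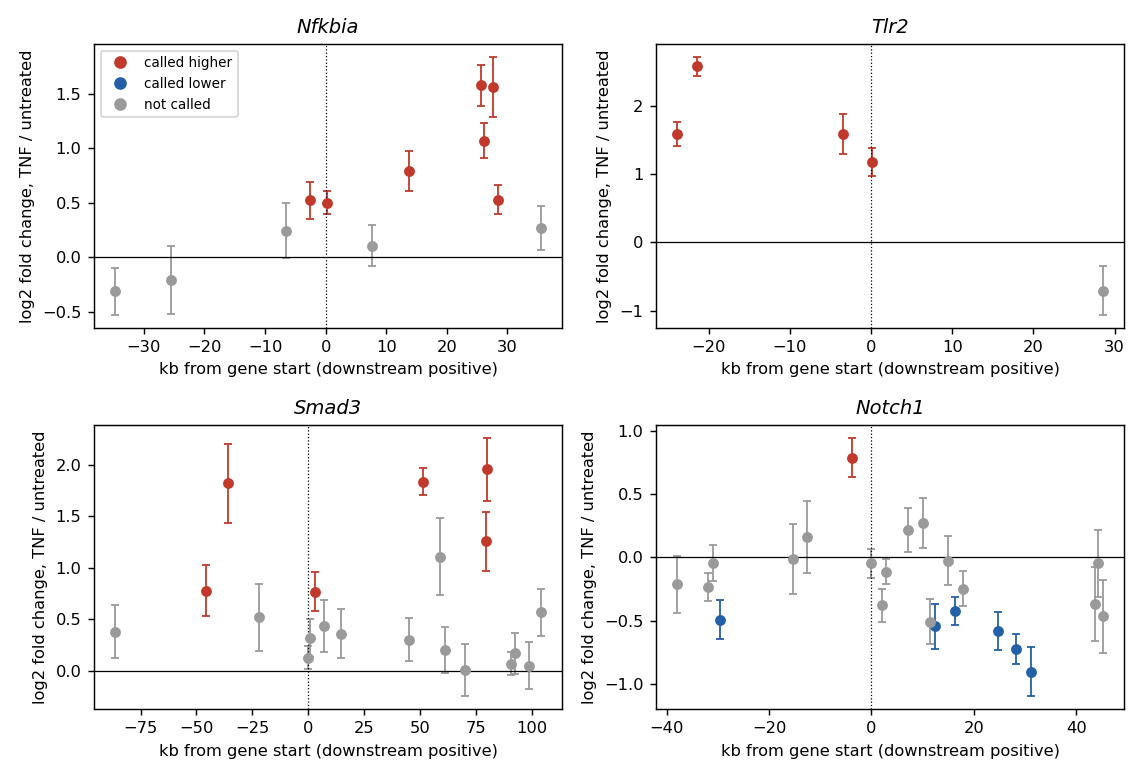
Log2 fold change of each locus peak (points, bars are SE) against distance from the gene start in kb, downstream positive, for Nfkbia, Tlr2, Smad3 and Notch1. At Nfkbia 5 called peaks lie 13.8 to 28.5 kb downstream, 1 at the start and 1 at 2.6 kb upstream, at Tlr2 they reach 23.8 kb upstream, at Smad3 they run from 80.2 kb downstream to 45.5 kb upstream, and at Notch1 the lower peaks lie mainly 12.5 to 31.2 kb downstream of the start.

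In the TNF receptor pathway, 16 of 91 locus peaks rose and 1 fell, with a median log2 fold change of 0.12 over all 91. Receptor and adaptor genes came first. Tnfrsf1a, the gene of TNFR1, had 1 of 3 peaks higher (chr6:125354587-125355087, 269.8, 277 and 307 without TNF and 399.7, 385 and 437 with it). That was a small rise of 0.52 ± 0.12 (adjusted p = 0.0033) with no overlap, and the start itself did not pass the test (0.22 ± 0.16, adjusted p = 0.48). Traf2, the adaptor that recruits the cIAPs, had 3 of 5 higher. Its peak at chr2:25534145-25534645 within the gene went from 293, 286 and 266 to 806, 711 and 898, a rise of 1.51 ± 0.13 (adjusted p = 2.7e-09). The peak 2.7 kb from the gene (chr2:25549361-25549861) went from 17.1, 17.7 and 35.7 to 132, 101 and 143, with a larger change of 2.43 ± 0.39 (adjusted p = 8.4e-05). Birc2, which encodes cIAP1, had a peak 1.1 kb from the gene (chr9:7838025-7838525) that read 31.9, 45.7 and 70.2 without and 166, 215 and 239 with TNF. It rose by 2.10 ± 0.27 (adjusted p = 4.5e-06), while the Birc2 start, a strong peak with a mean of 1438 without TNF, gave -0.06.

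Among the kinases of the pathway, Map3k14, the NIK kinase of the alternative NF-κB pathway, had 2 of 8 peaks higher, by 0.87 and 0.84. Map3k7, the TAK1 kinase, had 1 of 11, 21.7 kb away (1.03 ± 0.22), and Tab1, its partner, 1 of 5 (0.66 ± 0.19). Map3k8, the TPL2 kinase, had 3 of 9 higher, its start among them at 0.42 ± 0.12 (adjusted p = 0.022), a call lost when any of 4 single libraries was left out. Fadd, the adaptor of the death branch, had 2 of 3 higher (1.37 and 0.95). Ikbkg, the regulatory subunit NEMO of IKK, had 2 peaks higher at its alternative start, which overlap the head-to-head gene G6pdx and cannot be assigned to either. The first (chrX:74424333-74424833) went from 83.1, 136 and 82.5 to 158, 169 and 183, a change of 0.79 ± 0.18 (adjusted p = 0.0042), and the call at the second was lost whenever a library was left out. Traf1 had the only lower peak (chr2:34946042-34946542, -0.80 ± 0.24). No locus peak of Tnfrsf1b, Traf3, Traf5, Ripk1, Birc3, Cflar, Tab2, Ikbkb or Chuk passed the test, and Tradd and Casp8 had no locus peak. A peak at the Tradd start, assigned to another gene, was not called (0.04 ± 0.19, adjusted p = 0.95 by limma).

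Of the genes for NF-κB subunits and their inhibitors, 17 of 79 locus peaks rose and 1 fell, with a median of 0.25. Most of the called peaks were at inhibitors. The inhibitors and regulators Nfkbia, Bcl3, Nfkbie, Nfkbiz, Tnfaip3 and Tnip1 held 16 of them, and of the 5 subunit genes Rel, Rela, Relb, Nfkb1 and Nfkb2 only Nfkb1 held a called peak, 1 of 15. That peak (chr3:135674604-135675104) read 95.6, 102 and 97.3 without TNF and 223.7, 234 and 267 with it, a rise of 1.29 ± 0.20 (adjusted p = 7.5e-05). The subunit starts gave 0.15 for Rel, 0.30 for Rela, 0.26 for Relb, -0.06 for Nfkb1 and 0.35 for Nfkb2, none past the threshold.

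Nfkbia had 7 of 12 locus peaks higher, 5 of them downstream of the gene, 1 at the start and 1 upstream. The peak at chr12:55466760-55467260, 25.6 kb downstream of the start, went from 74.0, 81.1 and 59.1 to 199, 222 and 220.2. Its close neighbour at chr12:55466209-55466709 went from 268, 313 and 301 to 576, 595 and 681. Both were separated between the groups, by 1.58 ± 0.19 and 1.07 ± 0.16 (adjusted p = 1.3e-06 and 3.1e-05). Bcl3, an atypical IκB that binds p50 and p52 dimers, had all 4 of its locus peaks higher. At chr7:19824110-19824610, 1.5 kb from the gene, the values were 59.2, 62.0 and 48.0 without and 168, 154 and 200.4 with TNF, a log2 fold change of 1.61 ± 0.19 (adjusted p = 1.2e-06). Tnip1 had, beside its start, a peak 1.32 kb into the gene (chr11:54961370-54961870) that read 18.2, 19.2 and 43.1 and 151, 182 and 159. Of the called peaks of this list only a weak site of Tnfaip3 changed more, and the log2 fold change was 2.68 ± 0.29 (adjusted p = 2.5e-07). Tnfaip3 encodes A20, the ubiquitin-editing enzyme that shuts the pathway down, and its site at chr10:19009252-19009752 held 3.42, 8.85 and 6.16 untreated and 57.5, 69.0 and 64.4 with TNF. The untreated values stand for 3 to 6 reads, so the fold change of 3.25 ± 0.70 (adjusted p = 0.0023) depends on the number added before the logarithm. Nfkbie, which encodes IκBε, rose within the gene at chr17:45557327-45557827 from 13.7, 11.8 and 8.62 to 84.9, 77.6 and 54.0 (2.56 ± 0.47, adjusted p = 4.1e-04). Nfkbiz, which encodes IκBζ, rose at its start (chr16:55838725-55839225) from 554, 534 and 501 to 852, 810.2 and 908, by 0.69 ± 0.11 (adjusted p = 8.4e-05), and fell at a site 73.1 kb away (-0.90 ± 0.21). Cyld, Tnip2, Tnip3, Nfkbib and Nfkbid had no call.

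Cytokine and chemokine loci had 15 of 77 peaks called higher and 1 lower, with a median of 0.26. Ccl2, the chief chemokine for monocytes, had 4 of 6 higher. A site 28.6 kb from the gene (chr11:82006705-82007205) read 21.6, 29.5 and 16.01 without TNF and 215, 218 and 185 with it. Every TNF library lay far above every untreated one, a log2 fold change of 3.18 ± 0.26 (adjusted p = 2.5e-09). A stronger site 2.5 kb from the gene (chr11:82032876-82033376) went from 86.5, 103 and 97.3 to 359, 339 and 385. Here the rise was 1.91 ± 0.20 (adjusted p = 1.0e-07), whereas the Ccl2 start itself, with means of 512 and 522, gave 0.03. Ccl5, which attracts T cells and monocytes, had both locus peaks higher. The nearer, 4.3 kb away (chr11:83534534-83535034), read 164, 174 and 140.4 and 362, 332 and 419.5, and the farther (chr11:83550268-83550768) 10.2, 8.85 and 28.3 and 104, 176 and 80.0. Their changes were 1.21 ± 0.15 and 2.95 ± 0.36 (adjusted p = 1.6e-06 and 2.0e-06).

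Cxcl1, a neutrophil chemokine, had 1 of 2 peaks higher, 15.0 kb away (chr5:90875978-90876478), from 69.5, 78.2 and 109.6 to 228, 271 and 251 (1.56 ± 0.20, adjusted p = 3.3e-06). Csf1, the growth factor of microglia, had 2 of 11 higher. One of them (chr3:107772885-107773385) read 149, 145 and 144 and 334, 372 and 331, with a rise of 1.24 ± 0.16 (adjusted p = 3.2e-06). Lif had 2 of 10 higher (0.79 and 0.76, the second lost without untreated replicate 1 or 2 or TNF replicate 3), Cxcl12 2 of 13, and Csf2 1 of 5 (0.65 ± 0.16). Il33, an alarmin, was the gene with a peak in each direction, 1.32 ± 0.34 within the gene and -0.82 ± 0.21 at 31.2 kb. The starts of Il6 (0.43 ± 0.18, adjusted p = 0.15) and Csf3 (0.11) did not pass the test. Tnf itself, Cxcl9, Cxcl11 and Il1a had no locus peak.

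Adhesion and matrix genes had 13 of 93 peaks higher and 4 lower, with a median of 0.12, and none of their 12 gene-end peaks was called. Sele, which encodes E-selectin and is known from endothelium, had both locus peaks higher. At chr1:164030955-164031455 the values were 178, 161 and 166 without and 431, 445 and 506 with TNF (1.44 ± 0.18, adjusted p = 2.6e-06), and the call at the other was lost without any single library but untreated replicate 3. Has2, a hyaluronan synthase, had 2 of 8 higher, of which the site at chr15:56616102-56616602 went from 322, 351 and 294 to 716, 669 and 738. This rise of 1.13 ± 0.14 (adjusted p = 2.1e-06) was seen 49.3 kb from the gene. Tnc, the matrix protein tenascin-C, had 4 of 17 higher and 1 lower. Cd44, the hyaluronan receptor, had a peak in each direction. Within the gene, chr2:102873099-102873599 went from 67.2, 117 and 119 to 189, 205 and 272, and chr2:102820299-102820799 from 589.8, 509 and 633 to 384, 358 and 342. The first rose by 1.16 ± 0.22 (adjusted p = 5.8e-04) and the second fell, a change of -0.67 ± 0.13 (adjusted p = 4.9e-04). Icam1, Timp1, Mmp3 and Mmp10 had no locus peak, and the 5 of Vcam1 were not called. A peak at the Timp1 start, assigned to another gene, was not called (0.75 ± 0.42, adjusted p = 0.31 by limma).

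Genes of pattern recognition and complement had 14 of 52 peaks higher (26.9%) and 3 lower, with a median of 0.30. Tlr2 had 4 of 5 locus peaks higher. Besides the start and the site 21.2 kb away, the peak at chr3:83865180-83865680 went from 80.8, 87.0 and 72.7 to 231, 265 and 234 (1.59 ± 0.18, adjusted p = 6.4e-07). Tlr4, the receptor for lipopolysaccharide, had 3 of 6 higher. One lay 1.31 kb into the gene (chr4:66828607-66829107) and read 55.8, 84.1 and 55.4 without and 176, 215 and 218 with TNF. The groups were well apart, by 1.65 ± 0.21 on the log2 scale (adjusted p = 2.4e-06). C3, the central complement component and a marker of the neurotoxic reactive state described in culture, rose at its start (chr17:57227906-57228406) from 12.5, 4.43 and 16.01 to 71.6, 83.0 and 97.6. This was a larger change than at the other starts named here, 2.97 ± 0.36 (adjusted p = 1.4e-06), and a second peak within the gene rose by 1.06 ± 0.27, a call lost without untreated replicate 1 or TNF replicate 2. Lcn2, the siderophore-binding lipocalin 2, had 1 peak, at its start (chr2:32387720-32388220), with 29.6, 11.8 and 28.3 and 64.6, 63.6 and 55.0. It rose by 1.46 ± 0.42 (adjusted p = 0.022), a call lost without untreated replicate 2 or any TNF library. Irak2, a kinase below the Toll-like receptors, moved both ways within the gene. The site at chr6:113668540-113669040 rose from 23.9, 28.0 and 45.6 to 142, 145 and 136 (2.14 ± 0.26), and that at chr6:113678280-113678780 fell from 504, 516 and 413 to 209, 222 and 172 (-1.25 ± 0.23).

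Antigen presentation and interferon genes had 12 of 56 peaks higher and 1 lower, with a median of 0.25. Tap2, a subunit of the peptide transporter into the endoplasmic reticulum, had a peak 2.5 kb away (chr17:34218620-34219120) with 222, 211 and 201 in untreated and 581, 652 and 611 in TNF libraries. Its replicates were close and the rise was 1.54 ± 0.11 (adjusted p = 3.1e-10). Nlrc5, the activator of MHC class I genes, rose within the gene (chr8:94493290-94493790) from 104, 76.7 and 121 to 301, 367 and 333, by 1.74 ± 0.17 (adjusted p = 4.4e-08). H2-K1, a class I heavy chain, rose at its start (chr17:34000118-34000618) from 129, 176 and 148 to 263, 204 and 242 (0.65 ± 0.15, adjusted p = 0.0038), and reads from closely similar class I genes may be shared. Irf1 had 4 of 6 peaks higher. The site 40.7 kb away (chr11:53818813-53819313) went from 10.2, 4.43 and 8.62 to 78.7, 69.0 and 70.6. It was close to empty without TNF and changed by 3.14 ± 0.62 (adjusted p = 8.8e-04). Irf8, known from microglia and macrophages, had 2 of 7 higher, of which one at 90.8 kb (chr8:120847270-120847770) went from 52.4, 39.8 and 25.9 to 226, 172 and 179.7 (2.31 ± 0.27, adjusted p = 7.8e-07). A weak peak 0.41 kb from a gene end read 7.97, 14.8 and 22.2 and 31.8, 58.2 and 70.6, while the one at the start gave 0.14, and the call at the weak peak was lost without untreated replicate 1 or TNF replicate 3. Ifit1, an interferon-induced RNA-binding protein, rose at its start (chr19:34640571-34641071) from 53.5, 42.8 and 30.8 to 94.6, 85.1 and 85.2 (1.07 ± 0.22, adjusted p = 0.0013). Stat2, Irf7, Irf9 and Cd274 had no call.

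Of 63 locus peaks of AP-1 genes, 16 rose and none fell (adjusted p under 0.05 in limma), with a median of 0.14. Junb had all 4 of its locus peaks higher. At chr8:84979823-84980323, 1.3 kb from the gene, the values were 287, 266 and 209 without and 555, 572 and 586 with TNF. The site at chr8:84980954-84981454 read 142, 178 and 230.3 and 455, 485 and 543, and the strongest, at chr8:84976379-84976879, 717, 808 and 796 and 1418, 1336 and 1509. All 3 were separated, with changes of 1.18 ± 0.14, 1.45 ± 0.18 and 0.88 ± 0.11. The Junb start rose by 0.54 ± 0.14, a call lost without untreated replicate 2 or TNF replicate 3. Fos had 3 of 13 higher, each lost without some single library. Its start (chr12:85473582-85474082) read 398, 459 and 483 and 545, 518 and 783, where TNF replicate 3 was high, and gave 0.44 ± 0.14 (adjusted p = 0.037), and the value was 0.25 without that library. Jun had 2 of 12 higher, at 53.4 and 84.1 kb (0.96 and 1.15), Atf3 3 of 5, each lost when some single library was left out, and Batf3, Fosl2, Maff and Mafk 1 each. Fosb, Fosl1, Jund and Batf had none.

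C/EBP and STAT3 signalling genes had 15 of 94 peaks higher and 2 lower, with a median of 0.14. Cebpd, a C/EBP factor of the acute phase response, had a single locus peak, at its start (chr16:15886974-15887474), with 631, 668 and 626 and 1102, 1062 and 1197. Strong already, it rose by 0.80 ± 0.10 (adjusted p = 3.9e-06). Cebpb had 4 of 14 higher, of which chr2:167777395-167777895, 87.2 kb away, went from 222, 282 and 206 to 556, 573 and 766 (1.41 ± 0.20, adjusted p = 1.2e-05). Stat3 had 1 of 4 higher (chr11:100946732-100947232), from 460.0, 398 and 452 to 791, 825 and 829. The step was even across libraries, 0.90 ± 0.13 (adjusted p = 2.2e-05). Among the receptors that feed STAT3, Il6st (gp130) rose at chr13:112447081-112447581 from 36.4, 36.9 and 30.8 to 117, 112 and 154 (1.84 ± 0.28, adjusted p = 4.3e-05), and Osmr, the oncostatin M receptor, within the gene (chr15:6849877-6850377) from 178, 183 and 138 to 384, 377 and 446 (1.28 ± 0.15, adjusted p = 1.0e-06). Jak1 had 2 of 9 higher (1.88 and 0.71, the second lost without untreated replicate 1 or 2 or TNF replicate 3) and Socs3, the feedback inhibitor, 2 of 9 (0.77 and 0.75). Lifr had 1 of 21 lower and Cebpa 1 of 3 lower. Jak2, Socs1 and Cish had none.

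The reactive astrocyte list, genes that rise in astrocytes after injury or infection, had the most gene-end calls, 8 higher and 1 lower of 23, and 30 higher and 4 lower of 115 locus peaks (26.1% and 3.48%). Its median was 0.15. The study reported higher RNA of some members with TNF, among them Lcn2, Sbno2 and Cxcl10. It also reported higher accessibility at 24 h for Lcn2, Sbno2, Cxcl10 and Osmr, from the ATAC-seq data described here. These counts are therefore not independent evidence of direction. Sbno2, a transcriptional corepressor that IL-6-type cytokines induce, had 5 of 11 higher. The site 1.6 kb from the gene (chr10:80107508-80108008) read 66.0, 60.5 and 97.3 in untreated and 248, 372 and 456 in TNF libraries. The rise was 2.24 ± 0.20 (adjusted p = 7.9e-09), and a peak 1.71 kb from a gene end (chr10:80104166-80104666) rose by 2.66 ± 0.36. S1pr3, a receptor for sphingosine 1-phosphate, had 5 of 8 higher, none at a gene end. At chr13:51313415-51313915, 95.0 kb away, the values were 52.4, 48.7 and 70.2 and 210.5, 193 and 207, a change of 1.83 ± 0.22 (adjusted p = 1.8e-06). Cp, the copper oxidase ceruloplasmin, had 4 of 7 higher and 1 lower. A strong site 2.9 kb away (chr3:19953825-19954325), went from 529, 509 and 487 to 864, 1035 and 831, by 0.83 ± 0.13 (adjusted p = 6.7e-05). Serpina3n, a serine protease inhibitor, rose 1.5 kb from the gene (chr12:104415549-104416049) from 297, 298 and 288 to 727, 823 and 644, a change of 1.30 ± 0.15 (adjusted p = 9.9e-07). Cd109, a TGF-β co-receptor, had 3 of 13 higher, of which chr9:78623254-78623754 went from 209, 201 and 214 to 465, 487 and 589 (1.29 ± 0.14, adjusted p = 2.6e-07).

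Some gene-end calls of this list were less firm. Emp1, a membrane protein, rose at one start (chr6:135362500-135363000) from 232, 195 and 213 to 340.5, 316 and 424 and fell at another (chr6:135368155-135368655) from 477, 386 and 387 to 267, 304 and 311. The first change was 0.74 ± 0.14 (adjusted p = 5.5e-04), and the second, -0.50 ± 0.15 (adjusted p = 0.033), was lost without any single library other than untreated replicate 3. The Osmr start gave 0.58 ± 0.19 (adjusted p = 0.041). Its call was lost by edgeR, after a loess correction and without any single library other than untreated replicate 3. Clcf1, a ligand of the CNTF receptor, gave 1.05 ± 0.31 at its start (adjusted p = 0.025), a call lost whenever a library was left out and also without the NSP libraries. On the interferon list, the start of Gbp2, an interferon-induced GTPase, gave 0.55 ± 0.16, also lost whenever a library was left out. Gfap, the intermediate filament of astrocytes, had 1 of 4 locus peaks higher, 1.57 kb into the gene (chr11:102888051-102888551). It read 80.8, 76.7 and 117 without and 176, 166 and 296 with TNF, a change of 1.18 ± 0.22 (adjusted p = 3.8e-04), whereas its start gave -0.42 and did not pass the test (adjusted p = 0.27). Ptx3, Vim, Hspb1, B3gnt5, Slc10a6 and Cd14 had locus peaks but no call.

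Genes of astrocyte identity and metabolism had about as many calls in each direction, whereas among all locus peaks higher calls were the more common. Of 295 locus peaks, 19 rose (6.44%) and 21 fell (7.12%), with a median of -0.08, and the 28 gene-end peaks held 2 calls, both lower. Over all locus peaks 7.02% were called higher and 3.34% lower, so the list was near the first share and above the second. Aldoc, the brain aldolase, fell at 1 of its 2 known starts (chr11:78324022-78324522) from 329, 359.9 and 267 to 161, 208 and 186. No TNF library reached the lowest untreated one, and the change was -0.78 ± 0.13 (adjusted p = 2.0e-04). The peak at its other start, with means of 355 and 291, gave -0.29 ± 0.13 (adjusted p = 0.18) and was not called. Kcnj10, the potassium channel Kir4.1, fell at its start (chr1:172340836-172341336) from 985, 1065 and 909 to 746, 807 and 743 and 1.72 kb further (chr1:172342675-172343175) from 1505, 1503 and 1099.9 to 1060.3, 1039 and 936. Both changes were small, -0.36 ± 0.11 and -0.42 ± 0.12, and both calls were lost without untreated replicate 1 or 2 or TNF replicate 3, the one at the start also without TNF replicate 1. Slc4a4, the sodium bicarbonate cotransporter of astrocytes, had 5 of 21 lower and 2 higher. Its strong site at chr5:89171217-89171717 went from 977, 1053 and 717 to 293, 302 and 285. All TNF libraries lay far below all untreated ones, -1.62 ± 0.26 on the log2 scale (adjusted p = 6.9e-05), while a weak site 38.2 kb from the gene (chr5:89277565-89278065) went from 14.8, 19.2 and 16.01 to 83.1, 71.1 and 75.8 (2.14 ± 0.33).

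Other transporters and factors were mixed. Slc1a3, the glutamate transporter GLAST, had 1 peak lower and 1 higher of 20. The site 4.7 kb away (chr15:8629175-8629675) read 722, 748 and 698 and 529.7, 569.9 and 529.6, and that at 56.3 kb (chr15:8577532-8578032) 99.1, 150.5 and 99.8 and 233, 261 and 251. The changes were -0.41 ± 0.10 and 1.11 ± 0.18. Nuclear factor I genes, which drive astrocyte fate, had 4 of 22 lower for Nfix, 2 lower and 2 higher of 31 for Nfib, and 3 of each among 65 for Nfia. Aldh1l1, a folate enzyme and astrocyte marker, had 3 of 10 higher. Within the gene, chr6:90578077-90578577 went from 25.0, 16.2 and 35.7 to 162, 161 and 159.9 (2.67 ± 0.33, adjusted p = 1.8e-06). Sox9 had 1 of 17 higher (0.99 ± 0.15) and Gja1, connexin 43, 2 of 8. Slc1a2, Glul, S100b, Apoe, Clu, Fgfr3 and Acsbg1 had no call.

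Neural progenitor genes had 9 of 168 peaks higher (5.36%) and 11 lower (6.55%), with a median of -0.06 and no gene-end call. Over all locus peaks the shares were 7.02% and 3.34%. Notch1, the receptor that keeps progenitors undifferentiated, had 6 of 23 lower and 1 higher. At chr2:26475385-26475885, 28.2 kb downstream of the start, the values were 710.4, 671 and 624 without and 419, 456 and 344 with TNF. This strong intragenic site fell (-0.73 ± 0.12, adjusted p = 1.3e-04), as did 4 others 12.5 to 31.2 kb into the locus and 1 that lay 29.6 kb upstream. The site 3.9 kb upstream (chr2:26507435-26507935) rose from 194, 223 and 262 to 437, 335 and 401 (0.79 ± 0.15, adjusted p = 8.0e-04), and the start, with means of 741 and 718, gave -0.05. Olig1 had a site 8.8 kb away (chr16:91280491-91280991) that rose from 319.9, 332 and 256 to 559.8, 584 and 532 (0.89 ± 0.14) and a stronger one 32.5 kb away that fell (-0.43 ± 0.11), a call lost without untreated replicate 1 or 2 or TNF replicate 1. Hes1, a Notch target, had 1 of 14 in each direction (2.04 and -0.63, the latter lost without TNF replicate 2). Sox1 (14 peaks), Nes (6) and Egfr (20) also had 1 called in each direction, the lower one at Egfr being lost without untreated replicate 1 or TNF replicate 3. Sox2, Pax6, Dll1 and Fabp7 had no call.

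TGF-β, BMP and Id genes had 19 of 185 peaks higher (10.3%) and 3 lower (1.62%), with a median of 0.01. The higher peaks gathered at Smad3, a transducer of TGF-β signals, with 6 of 20. Its site at chr9:63706281-63706781, 51.5 kb downstream of the start, went from 261, 249 and 232 to 836, 906 and 918. It was one of the 10 higher peaks with the smallest p-values, at 1.84 ± 0.13 (adjusted p = 3.1e-10), and the others included chr9:63677573-63678073 within the gene, from 26.2, 16.2 and 11.1 to 56.6, 46.3 and 120.5 (1.96 ± 0.30). The Smad3 start, with a mean of 900.4 without TNF, gave 0.13. Smad1, of the BMP branch, had 2 of 12 higher (1.62 and 0.89, the second lost without untreated replicate 2 or TNF replicate 2) and the inhibitory Smad6 2 of 29. Ltbp1, which tethers latent TGF-β to the matrix, had 2 of 14, of which chr17:75110385-75110885 went from 19.4, 22.1 and 32.0 to 106, 65.7 and 115 (1.91 ± 0.30, adjusted p = 6.3e-05). Tgfb2 and Tgfbr1 had 1 each (1.25 and 1.33). Id3 had 2 of 9 higher and Id4 2 of 10 lower. Tgfb1, Tgfb3, Tgfbr2, Bmp2 and Bmp4 had none.

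NRF2 targets, which detoxify oxidants, had 8 of 69 peaks higher (11.6%) and 4 lower (5.80%), with a median of 0.05. Their gene-end calls went both ways. Osgin1 (chr8:119436835-119437335) rose from 74.0, 63.4 and 66.5 to 128, 106 and 109 and Srxn1, sulfiredoxin (chr2:152105257-152105757), from 532, 521 and 442 to 707, 641 and 632. The changes were 0.74 ± 0.18 (adjusted p = 0.0063) and 0.41 ± 0.11 (adjusted p = 0.016), the latter lost without untreated replicate 3 or TNF replicate 1. Sqstm1, the autophagy receptor p62, fell within 1 kb of its start (chr11:50209931-50210431) from 756, 786 and 750.1 to 585, 518 and 541 and rose 2.4 kb from the gene (chr11:50212956-50213456) from 272, 336 and 271 to 471, 449 and 448. Those changes were -0.48 ± 0.11 and 0.64 ± 0.13. Slc7a11, the cystine transporter, fell within the gene (chr3:50421872-50422372) from 655, 776 and 526 to 281, 347 and 287 (-1.08 ± 0.20, adjusted p = 5.5e-04). Its other called peak rose, a call lost without untreated replicate 2 or 3 or TNF replicate 1 or 3. Nqo1, Hmox1, Gclc and Gclm had no call.

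Glycogen and glucose genes had 2 of 121 peaks higher (1.65%) and 8 lower (6.61%), with the lowest median of all lists, -0.13, and no gene-end call. Some members, such as Pygb and Ppp1r3c, were named by the study as modulated under TNF, so these counts are not independent evidence. Slc2a1, the glucose transporter GLUT1, had 2 of 12 lower and 1 higher. The higher call was lost with thinned libraries and without untreated replicate 1 or 2 or TNF replicate 2 or 3. Within the gene (chr4:119112480-119112980) the values were 437, 435 and 361 without TNF and 180.4, 148 and 184 with it. The site 2.1 kb from the gene (chr4:119106356-119106856) read 266, 215 and 168 and 77.8, 91.6 and 53.0. Both fell without overlap, with log2 fold changes of -1.27 ± 0.16 and -1.54 ± 0.24 (adjusted p = 1.8e-06 and 4.5e-05), while the Slc2a1 start gave -0.13. Pfkfb3, which raises glycolysis, had 1 of 13 in each direction. The site at 41.6 kb (chr2:11429580-11430080) rose from 255, 314 and 285 to 676, 706 and 682 (1.28 ± 0.22, adjusted p = 1.9e-04), and one within the gene fell (-0.35 ± 0.10), a call lost without any of 4 single libraries. Pygb, the brain glycogen phosphorylase, had 2 of 4 lower, and Ppp1r3c, a glycogen-targeting phosphatase subunit, 1 of 8 (-0.53 ± 0.17), each lost without some single library.

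Contractile and YAP/TEAD genes had 10 of 167 peaks higher (5.99%) and 4 lower (2.40%), with a median of 0.00. Both shares were under those of all locus peaks, 7.02% and 3.34%. Vcl, the focal adhesion protein vinculin, had 2 of 14 higher and 1 lower. The lower one (chr14:21020391-21020891) went from 591, 413 and 468 to 157, 121 and 123 (-1.86 ± 0.38, adjusted p = 0.0014), a call not made by DESeq2. Ccn1 had 2 of 8 higher (0.72, lost without replicate 3 of either group, and 1.05) and Tpm1 1 of 11 (1.14 ± 0.21). Proliferation genes had 1 of 55 peaks higher (1.82%), near Cdk1, and 2 lower (3.64%), both near Mcm5, with no call at 19 gene-end peaks. The Cdk1 call was lost without untreated replicate 2 or TNF replicate 1 or 3. At Mcm5, 1 call was lost without replicate 1 or 3 of either group and with scaling to total reads. Last, the study named 9 transcription factors as network hubs at 24 h with TNF, and since they were chosen on these cells their count is not independent evidence of direction. Their loci had 17 of 87 peaks higher and 2 lower, with a median of 0.25, from Smad3, Cebpb, Atf3, Runx1, Stat3 and Nfkb1. Runx1 had 2 of 17 higher, of which chr16:92623913-92624413 went from 55.8, 29.5 and 65.3 to 120.3, 123 and 136 (1.39 ± 0.27, adjusted p = 8.4e-04).

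**Figure D4:**
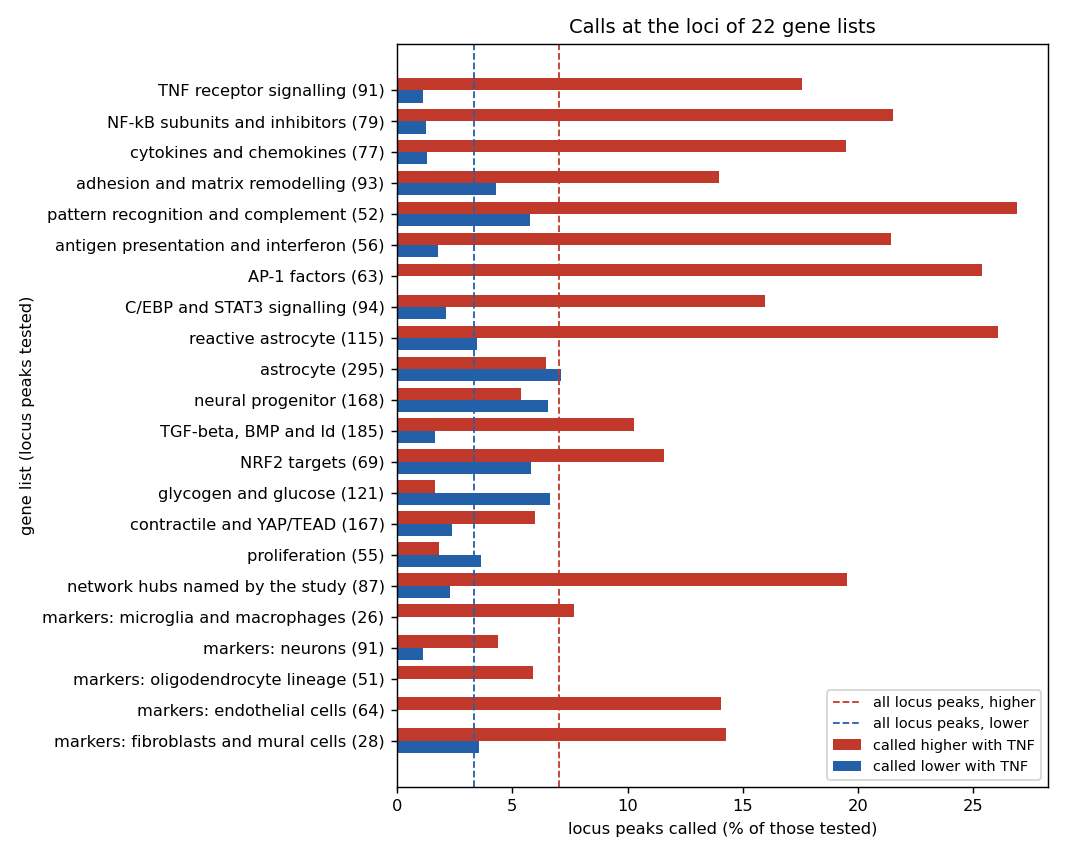
Share of locus peaks called higher (red) and lower (blue) with TNF at 24 h in each of 22 gene lists, with the number of locus peaks tested beside each name. Dashed lines give the shares over all locus peaks, 7.02% higher and 3.34% lower. Pattern recognition and complement (26.9% higher), reactive astrocyte (26.1%) and AP-1 (25.4%) lie farthest to the right, and glycogen and glucose has 1.65% higher and 6.61% lower.

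Motif letters were counted in the bases before gene starts. Over the 12612 promoters with a tested peak at the start, the κB letters (GGG, 3 bases of any kind, TTCC) were found within 250 bases before the start in 5.11%, and over all 20998 promoters in 4.80%. Of the 150 promoters whose start peak rose, 12.7% (19) held them, and of the 45 whose start peak fell, 0. The AP-1 letters TGANTCA were in 3.99% of the promoters tested and in 22.7% of those that rose (34), against 8.89% of those that fell (4). IRF letters (GAAA, 2 bases of any kind, GAAA) were in 5.33% of the risen, 4.44% of those that fell and 2.29% of those tested, and the NRF2 letters TGACNNNGC in 19.3%, 6.67% and 11.8%. The last overlapped an AP-1 match in 45 of the promoters tested and a GC box in 118. STAT letters (TTC, 3 bases of any kind, GAA) were in 10.0% of the risen, 8.89% of those that fell and 5.46% of those tested, and the CRE letters TGACGTCA in 0 of the risen, 2.22% of those that fell and 2.78% of those tested. C/EBP letters TTGCNNAA were in 12.7% of the risen, 6.91% of those tested and 26.7% of those that fell. The GC box GGGCGG, common at broadly active starts, was in 37.3% of the risen and 28.9% of those that fell, against 60.9% of those tested. The κB letters overlapped a GC box in 78 promoters and STAT letters in 12, and each pair not given here in at most 5. Both strands were searched throughout. These shares are descriptions without a test, and the promoters called are also weaker peaks than most starts.

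A second set of sequences shows the AP-1 letters at starts that rose, as 60 bases on the strand of the gene from RefSeq GRCm38.p6 with the match in capitals. They come from genes of different lists, NRF2 targets (Srxn1, Osgin1), reactive astrocytes (Emp1, Cp, Cxcl10), interferon (Gbp2) and the TNF receptor pathway (Ikbkg). The Ikbkg start is the one it shares with G6pdx, and Cxcl10 is also on the cytokine list.
Srxn1 (chr2:152105452-152105511, plus strand): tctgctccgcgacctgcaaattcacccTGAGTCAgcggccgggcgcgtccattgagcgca
Osgin1 (chr8:119437023-119437082, plus strand): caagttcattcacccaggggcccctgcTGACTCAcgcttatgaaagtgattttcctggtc
Emp1 (chr6:135362871-135362930, plus strand): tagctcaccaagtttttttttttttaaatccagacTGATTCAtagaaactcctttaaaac
Cp (chr3:19956850-19956909, plus strand): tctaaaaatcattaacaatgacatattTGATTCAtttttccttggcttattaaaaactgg
Gbp2 (chr3:142620534-142620593, plus strand): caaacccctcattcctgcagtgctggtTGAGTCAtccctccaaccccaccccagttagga
Cxcl10 (chr5:92348931-92348990, minus strand): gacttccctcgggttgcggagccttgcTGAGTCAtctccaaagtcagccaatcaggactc
Ikbkg (chrX:74424549-74424608, plus strand): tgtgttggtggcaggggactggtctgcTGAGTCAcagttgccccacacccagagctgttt
Srxn1 and Emp1 each held 2 matches in the 250 bases searched, of which 1 is shown. In Cxcl10 the match lay 74 to 68 bases before the start, downstream of both κB matches printed above.

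Markers of other cell types were read beside these results. Among microglia and macrophage genes, P2ry12, Tmem119 and Spi1 had gene-end peaks, with a summed level of 353 to 373 without TNF and 333 to 361 with it. None of these peaks was called. Over all 5 gene-end peaks of the list, at 4 of its 12 genes, the sum was 850 to 923 without TNF and 908 to 927 with it, and none was called. Among the locus peaks of the whole list, 2 of 26 were called higher (7.69%, against 7.02% of all locus peaks). The peak nearest to Ptprc (chr1:138037388-138037888, 25.2 kb from the gene) read 37.6, 36.9 and 64.0 without TNF and 667, 747 and 697 with it. It was among the most changed of all, at 3.95 ± 0.33 (adjusted p = 3.6e-09), although Ptprc, which encodes the leukocyte antigen CD45, had no peak at its start. A weak peak in Aif1 went from 22.8, 16.2 and 16.01 to 52.2, 64.6 and 69.6 (1.71 ± 0.41). The summed gene-end level was 1806 to 2048 without and 1789 to 2019 with TNF for 7 of 12 neuronal genes, and 704 to 867 and 769 to 786 for 4 of 10 genes of the oligodendrocyte lineage. It was 297 to 330.1 and 264 to 323 for 2 of 8 endothelial genes, and 313 to 339 and 298 to 348 for 1 of 8 fibroblast and mural genes. The groups overlapped in each of these 5 lists. A site within Pecam1 (chr11:106674535-106675035) went from 335, 317 and 363 to 742, 767 and 849 (1.21 ± 0.12, adjusted p = 9.6e-08). It was among the 9 of 64 endothelial locus peaks called higher. That is 14.1%, against 7.02% higher and 3.34% lower over all locus peaks. Neuronal loci had 4 of 91 higher (4.40%) and 1 lower (1.10%), and fibroblast and mural loci 4 of 28 (14.3%) and 1 (3.57%). The oligodendrocyte list had 3 of 51 higher (5.88%), with Cspg4, the NG2 proteoglycan, at 1.38 ± 0.20. Pecam1, Cdh5, Tek, Cldn5 and Tie1 had no gene-end peak. The part of other cell types in the calls was not tested.

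Some sites were all but closed before TNF. Of the peaks called higher with a mean of at least 50 with TNF, the 10 lowest without it lay in or near Rapgef5, Gm8439, Stx8, Tmem176b, Tnfaip3, Wfdc21, Cd28, Parva, Gm28802 and Ylpm1. The clearest was within Stx8, a syntaxin of late endosomes (chr11:68091903-68092403), with 5.69, 1.48 and 8.62 without and 191, 184 and 266 with TNF. The untreated values stand for 5, 1 and 7 reads, and the fitted change was 5.29 ± 0.48 (adjusted p = 1.2e-08). Within Ylpm1 (chr12:85051014-85051514) the values were 3.42, 7.38 and 11.1 and 106, 122 and 94.5 (3.82 ± 0.42), and near Rapgef5 (chr12:117481018-117481518) 1.14, 1.48 and 9.85 and 68.1, 84.0 and 110.1 (4.49 ± 0.57). The table holds no value under 1 read, so a lowest value may stand for none, and fitted changes from such levels depend on the number added before the logarithm. At each of the 10 sites the difference was in the same direction at 72 h, with log2 values of 1.68 to 3.95.

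The called sites were followed through the other groups. Over the peaks called higher at 24 h, library medians were 66.0 to 71.4 in untreated cells and 138 to 155 with TNF at 24 h. NSPs had 47.9 to 64.5 and the cells of 1 week 85.7 to 94.6. At 72 h the medians were 84.9 to 86.1 untreated and 142 to 151 treated. Over the peaks called lower, untreated cells at 24 h had 166 to 175 and treated ones 95.5 to 99.1, against 102 to 131 in NSPs and 141 to 154 in the cells of 1 week. At 72 h they were 146 to 156 untreated and 93.0 to 94.8 treated. The 24 h values chose these peaks and are a description. Over the peaks called lower, every untreated library at 24 h lay above every NSP library and every TNF library below. Library names at 72 h and 1 week carry a tag that the names at 24 h and in NSPs lack, so comparisons across the tag may include a batch. Each TNF comparison lies within one tag.

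**Figure D5:**
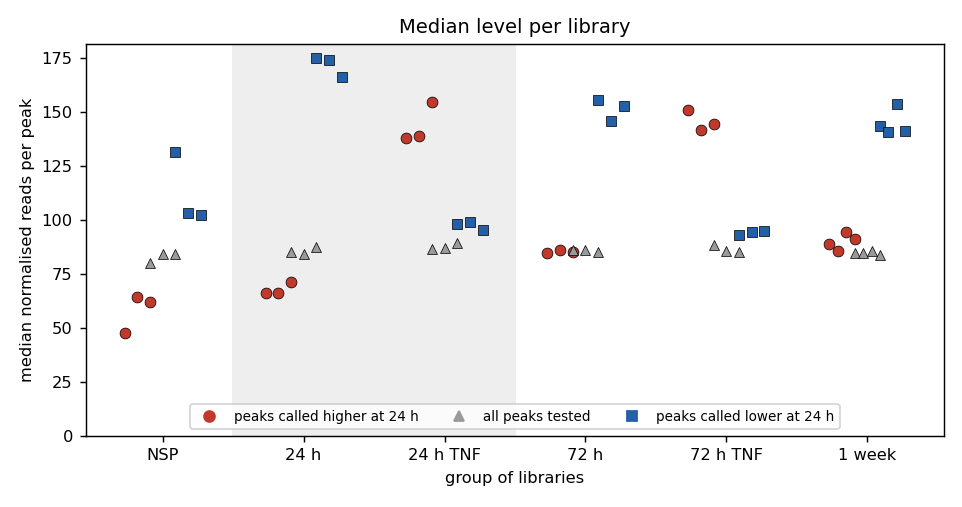
Median normalised reads per peak in each of the 19 libraries, by group, over the peaks called higher (circles), called lower (squares) and all peaks tested (triangles). The shaded groups, at 24 h with and without TNF, chose the peaks. With TNF the higher set is at 138 to 155 at 24 h and 142 to 151 at 72 h, and the lower set at 95.5 to 99.1 and 93.0 to 94.8.

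Whether the effect at 24 h differed from that at 72 h was asked by the interaction of TNF with time, in which no library is shared between the effects. Of 88919 peaks, 1 passed by limma with a log2 fold change lower at 72 h than at 24 h (0.00112%) and 0 with a higher one. Before adjustment 3484 and 3191 peaks had a limma p under 0.05. This split is by sign, so at a peak that TNF lowered, a lower value at 72 h is a larger loss. edgeR called 1 in total, DESeq2 67 lower and 18 higher at 72 h, and limma without the NSP libraries 162 lower and 38 higher. Several genes had a called effect at 24 h and a small value at 72 h, such as S1pr3 at 95.0 kb (1.83 and 0.47), Tnc at 24.2 kb (2.72 and 0.63), Clcf1 at its start (1.05 and -0.05) and Ikbkg at its alternative start (0.79 and 0.04). For none of these did the difference between the times pass the test with all 19 libraries. At 72 h the effects of the leading sites were 2.64 for Ccl2, 2.31 for C3, 3.31 for Tnip1, 4.28 near Ptprc and 1.79 for Pecam1, all called there too, where 6.24% of peaks tested were called higher and 5.55% lower.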

How the data were processed

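ATAC-seq libraries were sequenced as paired ends. According to the study's methods and the submitters' notes, the authors trimmed reads with Trim Galore, checked them with FastQC, aligned them to mm10 with Bowtie2, handled them with SAMtools, removed mitochondrial reads and blacklisted regions, called peaks with MACS2, annotated them with HOMER and compared groups with DiffBind. Versions, the treatment of duplicates and the shift of transposase cuts are not given in the sources used here. The authors deposited a normalised signal per peak and library, not raw counts. Each library's values were whole multiples of what 1 read is worth (100% of values, tolerance 0.01), which gave back the reads and the depths. The lowest value is 1 read and may stand for 0.

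The main test was limma 3.58.1 with a trend on log2(value + 1) over all 19 libraries with 6 group means, two-sided, on peaks kept by filterByExpr of edgeR 4.0.16 with a minimum count of 10 (88919 kept, 1235 left out), with Benjamini-Hochberg adjustment over all of them. A call is an adjusted p under 0.05. The pipeline was tested on simulated data. Alternatives used edgeR and DESeq2 1.42.0 on the recovered reads, in R 4.3.3. Tables were made with Python 3.11.15 and pandas 2.3.3.

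Gene positions, names and promoter sequences came from RefSeq GRCm38.p6, the assembly of mm10. Of 21900 protein-coding genes, 17492 had a known start. Groups came from the sample titles. The members and gene lists were chosen with earlier results of these data known. Named were the 10 peaks with the smallest p in each direction without overlap between groups (1 per gene), up to 6 genes per list with the smallest p at a called peak, all genes with a called gene-end peak, any gene of the first 2 lists, list genes without a call as such, the 10 and 5 genes with the most higher and lower peaks, and the 10 higher peaks lowest without TNF. Some genes of the lists are not reported here. The peaks compared between 24 h and 72 h at the end and the second or later peaks given for a gene were chosen after their values were seen. Whether same-numbered libraries come from the same culture is not given in the sources used here, and the main fit used no pairing. Correlations of deviations from the group means were 0.034, 0.026 and 0.106 between same-numbered libraries and -0.066 to 0.036 between the others.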

Additional observations from a re-analysis of the deposited data

Results flagged for a closer look

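At 1 peak the effect of TNF differed between the times by the test of the interaction. It lies 111 kb from Bmp7, the nearest protein-coding gene, which encodes a bone morphogenetic protein (chr2:172756448-172756948). The untreated libraries at 24 h read 123, 119 and 121 and the TNF libraries 225, 259 and 233. The log2 fold change was 0.97 ± 0.14 at 24 h and -0.57 at 72 h, and the peak was called at both times, in opposite directions. The difference, 72 h minus 24 h, was -1.54 ± 0.20 (adjusted p = 0.0022 by limma over all peaks). No explanation was tested.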

How the results depend on the processing

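Of 244 named peaks, 176 had the same call under every alternative, 230 under every one other than leaving out a library, and none was reversed. Leaving out 1 library gave 3860 to 5629 peaks higher and 1525 to 2502 lower, 123 to 186 and 40 to 96 at gene ends, and 164 to 203 and 41 to 58 over the gene lists, against 233 and 73 with all libraries. The 73 lower list peaks were 41 without untreated replicate 1, 44 without untreated replicate 2, and 44, 48 and 41 without TNF replicates 1, 2 and 3. Lower peaks numbered 5750 when the 6 libraries at 24 h were fitted alone, 5378 without the NSP libraries and 4914 when each was thinned to 11758938 reads. Under these 3 settings, lower peaks at gene ends were 157, 162 and 130 and over the lists 127, 130 and 115, and higher gene-end peaks were 334 without the NSP libraries. The cause was not tested. With a replicate block in the fit of 6 libraries there were 9307 higher and 6801 lower peaks, 378 and 243 at gene ends and 151 lower over the lists. Whether same-numbered libraries belong together is not given, so the block may not be a pairing. Untreated replicate 3 correlated best with TNF replicate 3 (0.106), and untreated replicate 1 with TNF replicate 2 (0.036). By construction, gene ends of 500 bp gave 145 higher and of 2 kb 362 and 138, and the lists held 138 higher peaks within 10 kb, and 27 higher and 5 lower at gene ends only. The interaction gave 8 calls scaled to total reads, 7 after loess, 85 by DESeq2 and 4 with log2(value + 5). Without the NSP libraries it gave 200, of which 162 had a lower log2 fold change at 72 h than at 24 h. With a library left out it gave 1 to 2, the 2 being without untreated 72 h replicate 3. The share of calls that were higher was 63.3 to 67.3% under other scalings, tests and filters, 59.6% with the 6 libraries alone, 60.9% without the NSP libraries, 62.6% thinned and 57.8% with the block. Depth limits sites of few reads, where a value of 1 read may be 0.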
